A study of Mus musculus with 10 samples.

Results

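Toll receptors, the NLRP3 inflammasome, the cytokines of the innate response and the phagocyte NADPH oxidase were followed through 10 of the 47937 genes counted in each library. The genes were the receptors Tlr2 and Tlr4, the inflammasome sensor Nlrp3, the cytokines Il1b, Il18, Tnf and Il10, the interleukin-1 receptor antagonist Il1rn, and the oxidase subunits Cybb and Ncf1. They were chosen by symbol, matched from the Ensembl identifiers of the count files with the version dropped, and all 10 were found. The libraries were mRNA-seq of visceral white adipose tissue (WAT) from C57BL/6 mice. The animals were wild type (Mof+/+) or heterozygous for the histone acetyltransferase gene Mof (Mof+/-), and they received a standard diet (SD) or a high-fat diet (HFD). There were 3 libraries per genotype on SD and 2 per genotype on HFD. By the design text of the series, SD mice were 8 weeks old and HFD mice were 27 weeks old after 20 weeks of the diet, so diet and age cannot be told apart. For the HFD mice the study itself gives another length of feeding, and its methods give 1 age range for all mice of this assay. The comparisons asked how Mof dosage affects WAT on SD, and how it affects the response to HFD.

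Toll-like receptors on the surface of macrophages and other cells bind microbial products and pass the signal through MyD88 to the transcription factor NF-kB, which turns on cytokine genes and the precursor of interleukin-1 beta. The NLRP3 inflammasome then activates caspase-1, which cuts the precursors of interleukin-1 beta and interleukin-18, while the product of Il1rn occupies the interleukin-1 receptor without signalling. The phagocyte NADPH oxidase makes superoxide from a membrane core, which holds the Cybb protein, and cytosolic subunits, of which the Ncf1 protein is the organizer. Visceral WAT of obese animals is known to gather macrophages, a major source of these products in fat.

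Features of whole libraries bear on every value below. Total counts ranged from 1044355 in the first HFD Mof+/- library to 17171947 in the first SD Mof+/- library. Low counts had an unusual distribution in some libraries. In the first HFD Mof+/- library 59 genes had exactly 3 counts and 242 had 15, the most frequent count from 2 to 60, whereas in the first HFD Mof+/+ library 392 genes had 3 counts and 149 had 15. In the third SD Mof+/- library the most frequent count from 2 to 60 was 17. The cause of this shape was not tested. Reads without molecular identifiers are not independent molecules, so the exact 95% intervals and the floor of 3 counts used below cover counting error only. The first HFD Mof+/- library also had 6.21% of its counts in 10 skeletal muscle markers and 26.9% in mitochondrial genes, against at most 0.160% and 8.82% in any other library. Over all genes tested, the log2 fold change followed exon length, with a Spearman rho across genes of -0.43 for genotype on SD and -0.28 for diet in Mof+/+. The 4 Y-linked genes on the marker list were at 0 and Xist was at 46.1 to 139 CPM (counts scaled to each library's total) in the SD Mof+/- libraries, whereas in the other 7 libraries the 4 summed to 77.6 to 225 CPM and Xist was at 0. The study's methods describe the mice of this assay as male, which the SD Mof+/- libraries go against. Genotype on SD, diet in Mof+/- and the interaction therefore cannot be told apart from this sex-linked pattern, whereas genotype on HFD and diet in Mof+/+ were matched in it. The third SD Mof+/+ file carries a heading of a heterozygous library and the third SD Mof+/- file that of a control. The sex-linked genes followed the sample labels, which were used. Mof itself (symbol Kat8) was at 20.4 to 21.5 CPM in SD Mof+/+ against 11.5 to 18.8 CPM in SD Mof+/-. On HFD it was at 18.1 and 19.2 CPM in Mof+/+ and at 10.5 and 20.1 CPM in Mof+/-, where the value of 20.1 rests on 21 counts (95% interval 12.4 to 30.7 CPM) and so does not check that label.

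**Figure D1:**
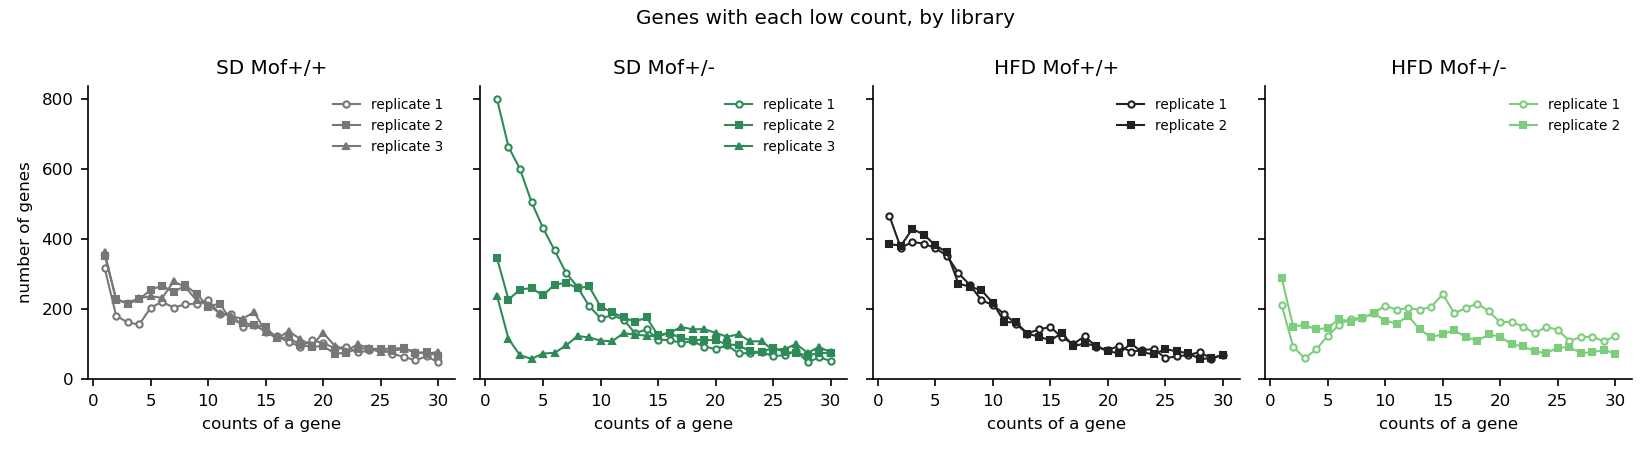
Number of genes (y axis) that had each count from 1 to 30 (x axis), 1 line per library and 1 panel per group. In the first HFD Mof+/- library the number of genes climbs from 59 at 3 counts to 242 at 15 counts, and the third SD Mof+/- library has a similar dip at low counts, unlike the HFD Mof+/+ libraries.

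The promoters of the genes whose levels carry the results are shown so that the regulatory letters can be read beside the values. Each run holds the 250 bases before a RefSeq transcription start on GRCm38.p6, read 5′ to 3′ on the strand of the gene, and capitals mark matches to 3 motifs searched on both strands. The motifs were GGGA followed by any 4 bases and CC for NF-kB, TGANTCA for AP-1 and GAGGAAG for PU.1, the myeloid lineage factor. They occur by the same search in 17.6%, 6.75% and 10.6% of all 32851 promoter windows of that table. Il1rn (its most upstream of 3 starts), Cybb and Ncf1 are the genes called higher on HFD in Mof+/+, and Il1b and Tnf are cytokine genes that were not called. For Cybb the RefSeq start lies inside the GENCODE M21 span of the gene, chrX:9435252-9487771, and not at its upstream end.
Il1rn, chr2:24336610-24336859, plus strand: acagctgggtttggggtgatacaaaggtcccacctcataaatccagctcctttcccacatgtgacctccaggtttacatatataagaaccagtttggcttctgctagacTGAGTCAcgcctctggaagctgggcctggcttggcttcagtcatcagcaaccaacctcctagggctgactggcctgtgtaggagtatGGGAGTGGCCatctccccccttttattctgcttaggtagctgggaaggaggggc
Cybb, chrX:9469325-9469574, minus strand: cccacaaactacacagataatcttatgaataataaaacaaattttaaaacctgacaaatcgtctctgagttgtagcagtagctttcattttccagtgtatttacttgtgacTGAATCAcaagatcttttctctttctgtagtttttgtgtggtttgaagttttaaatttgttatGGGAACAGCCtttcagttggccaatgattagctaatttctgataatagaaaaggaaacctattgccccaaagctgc
Ncf1, chr5:134229626-134229875, minus strand: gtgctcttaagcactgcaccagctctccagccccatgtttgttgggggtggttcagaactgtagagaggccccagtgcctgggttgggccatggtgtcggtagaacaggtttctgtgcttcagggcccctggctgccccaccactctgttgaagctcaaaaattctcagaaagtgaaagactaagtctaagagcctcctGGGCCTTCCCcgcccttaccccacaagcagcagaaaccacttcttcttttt
Il1b, chr2:129371140-129371389, minus strand: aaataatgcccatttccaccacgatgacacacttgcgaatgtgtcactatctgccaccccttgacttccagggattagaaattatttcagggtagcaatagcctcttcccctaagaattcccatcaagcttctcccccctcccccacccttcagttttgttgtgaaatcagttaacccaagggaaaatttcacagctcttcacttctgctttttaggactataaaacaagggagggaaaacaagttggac
Tnf, chr17:35202008-35202257, minus strand: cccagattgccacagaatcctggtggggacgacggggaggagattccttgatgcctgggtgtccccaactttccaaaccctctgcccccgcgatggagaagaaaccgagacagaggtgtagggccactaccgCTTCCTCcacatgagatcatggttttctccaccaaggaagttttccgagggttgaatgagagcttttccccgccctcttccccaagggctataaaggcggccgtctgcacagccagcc
The NF-kB letters stood 54, 76 and 51 bases before the start in Il1rn, Cybb and Ncf1, and the AP-1 letters 141 and 139 bases before it in Il1rn and Cybb. Il1b had no match to the 3 motifs in this window, and Tnf had the PU.1 letters alone. Of the other members with entries, Tlr2 and the upstream start of Nlrp3 held the NF-kB letters, the downstream start of Nlrp3 held the PU.1 letters 130 and 36 bases before it, and the other 2 starts of Il1rn and that of Il18 held none of the 3 motifs. A match is a string of letters and not a shown binding site, and no match says only that these letters are not in this window. Tlr4 and Il10 were not covered.

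Across the 10 libraries the summed level of the 10 genes was highest in HFD Mof+/+. The sum was 99.7 to 206 CPM in SD Mof+/+, 63.5 to 107 CPM in SD Mof+/-, 402 and 507 CPM in HFD Mof+/+, and 91.9 and 174 CPM in HFD Mof+/-. In this bulk tissue, fewer cells of a type and less RNA per cell cannot be told apart.

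**Figure D2:**
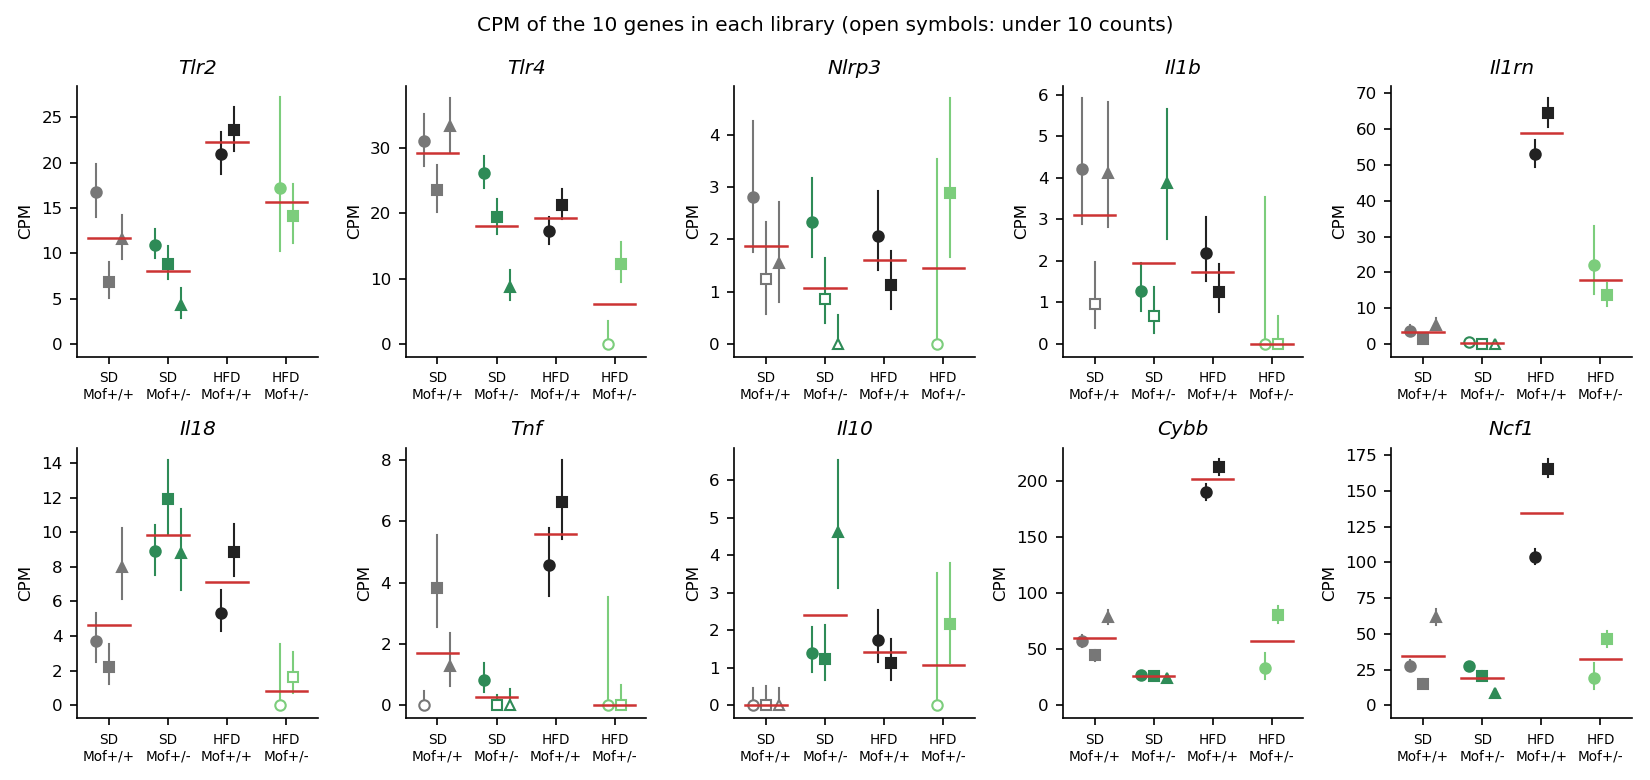
CPM (y axis, linear) of each of the 10 genes in each library, grouped by diet and genotype on the x axis. Circles, squares and triangles are replicates 1, 2 and 3, thin lines are exact 95% counting intervals, red lines are group means, and open symbols rest on under 10 counts. The HFD Mof+/+ libraries sit far above the others for Il1rn, Cybb and Ncf1, whereas Nlrp3 and Il1b overlap between the diets in Mof+/+.

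Per kilobase of exons, which allows genes to be ranked, Cybb and Ncf1 led in both Mof+/+ groups. In SD Mof+/+ the mean level was 10.4 ± 2.97 CPM per kilobase (standard deviation, n = 3) for Cybb and 9.51 ± 6.58 for Ncf1, a pair whose spreads overlapped. They were followed by Tlr4 at 5.27 ± 0.918, Il18 at 4.49 ± 2.92 and Tlr2 at 3.89 ± 1.64 CPM per kilobase, which did not differ beyond their spread. Il1b at 1.63 ± 0.973, Tnf at 1.04 ± 1.19, Il1rn at 0.617 ± 0.355 and Nlrp3 at 0.459 ± 0.206 CPM per kilobase came next, and Il10 had no count. In HFD Mof+/+ the order was Ncf1 at 36.8 ± 11.9 (standard deviation, n = 2), Cybb at 34.8 ± 2.73, Il1rn at 10.6 ± 1.47, Tlr2 at 7.40 ± 0.613, Il18 at 6.90 ± 2.40, Tlr4 at 3.47 ± 0.515, Tnf at 3.42 ± 0.877, Il10 at 1.09 ± 0.335, Il1b at 0.903 ± 0.351 and Nlrp3 at 0.393 ± 0.164 CPM per kilobase. In SD Mof+/- Il18 ranked first at 9.56 ± 1.71 CPM per kilobase (standard deviation, n = 3), above Ncf1 at 5.21 ± 2.57 and Cybb at 4.47 ± 0.269. In HFD Mof+/- Cybb at 9.86 ± 5.78 (standard deviation, n = 2) and Ncf1 at 8.93 ± 5.24 CPM per kilobase led, with overlapping spreads. In Mof+/+ Il1rn had rank 8 of the 10 levels on SD and rank 3 on HFD, where the ranges of Cybb and Ncf1 stayed above it. Ncf1 and Cybb, Tlr2 and Il18, Tlr4 and Tnf, Il10 and Il1b, and Il1b and Nlrp3 were neighbours whose spreads overlapped on HFD.

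On HFD, Mof+/+ WAT had more Il1rn, Cybb and Ncf1 RNA than on SD, by 4.23, 1.87 and 2.09 on the log2 scale. These were 3 of the 9 members tested, all higher, and the background was 9.75% of 14939 genes called and 6.02% called higher (edgeR's quasi-likelihood test with Benjamini-Hochberg adjustment over all genes tested, adjusted p under 0.05). The median log2 fold change of the members was 1.05, against -0.04 over all genes tested. The 2 groups did not overlap in CPM for 6 members that were higher, of which Il10 was not tested, and 1 that was lower, beside 21% and 28.2% of all genes tested. Leaving out a library changed these calls. All 3 were lost without the second HFD Mof+/+ library, with adjusted p-values of 0.0788, 0.0962 and 0.368 for Il1rn, Cybb and Ncf1, and Il1rn alone remained without the first SD Mof+/+ library (adjusted p = 0.0450). Without the first HFD Mof+/+ or the second SD Mof+/+ library Ncf1 was lost, and in a fit of all 10 libraries Cybb alone was called. With the third SD libraries exchanged as their headings read, none of the 3 was called (adjusted p = 0.223, 0.117 and 0.126).

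No member was called in the other comparisons, among them both genotype comparisons. On HFD, 0 of 10 members passed the threshold for genotype, where 0% of 14120 genes did, and 4 members had an unadjusted p under 0.05, as did 12.3% of all genes. DESeq2 called 209 genes there and no member. On SD, 0 of 8 members tested were called for genotype against 5.24% of 13864 genes, with 3 at an unadjusted p under 0.05, as for 25.7% of all genes, and DESeq2 called no member. For diet in Mof+/-, 0 of 8 were called against 0% of 13610 genes, with 1 at an unadjusted p under 0.05 against 8.57% of all genes, and DESeq2 called 1, Il1rn. For the interaction, the difference between the genotype effects of the diets, 0 of 10 were called against 0.0881% of 15897 genes, with 2 at an unadjusted p under 0.05, against 12.4% of all genes, and none by DESeq2. Without overlap in CPM, Il18, and Il10, which was not tested, were higher and Il1rn and Cybb lower in Mof+/- on SD, beside 9.71% and 30.6% of all genes tested. For diet in Mof+/-, 3 (Tlr2, Il1rn and Cybb) were higher and 1 (Il18) lower, beside 9.88% and 17.7%. Il1b, which was not tested there, had no count in HFD Mof+/-, and the floor of 2.87 CPM in the first of those libraries is above the 1.28 and 0.671 CPM of 2 SD Mof+/- libraries.

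The members lay mostly on the low side for Mof+/- on HFD. Their median log2 fold change was -1.45 against -0.24 for all genes tested, and 8 of 10 were below Mof+/+ without overlap in CPM, beside 45.6% of all genes tested. The 8 include Il1b, for which the first HFD Mof+/- library does not tell the genotypes apart, as given below. With TMM-normalized CPM 7 of 10 were, since Tlr2 then overlapped. With an offset for exon length the median of all genes was 0.79, Tlr2 and Il1rn were above 0 (1.23 and 0.27), and Cybb and Ncf1 were at -0.35 and -0.72. The 2 HFD Mof+/- libraries differed from each other, and leaving out either one gave calls, 5 members (Il1rn, Il18, Tnf, Cybb and Ncf1) without the first and 6 (those 5 and Tlr4) without the second, all lower. In each of those fits the lone Mof+/- library is assumed to vary like the Mof+/+ pair, and 4326 and 7551 genes in all were called.

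**Figure D3:**
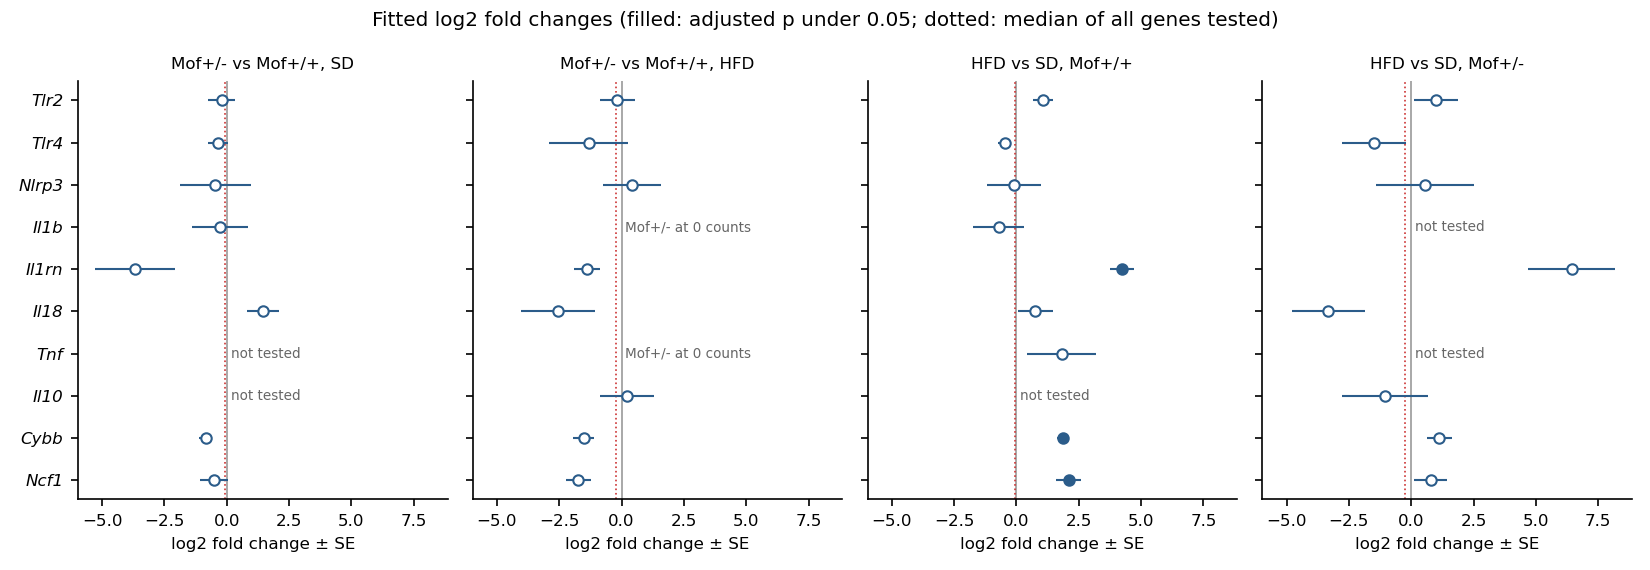
Fitted log2 fold change (x axis) with its standard error for each gene (y axis), 1 panel per comparison, with the median of all genes tested as a dotted line. Filled points passed an adjusted p of 0.05: only Il1rn, Cybb and Ncf1 for diet in Mof+/+, and genes that were not tested or had no count in Mof+/- carry words in place of a point.

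Neither receptor was called in any comparison that held all its libraries. Tlr2 (chr3:83836272-83841767), which binds bacterial lipoproteins with Tlr1 or Tlr6, was at 16.7, 6.85 and 11.6 CPM in SD Mof+/+ and at 10.9, 8.82 and 4.31 CPM in SD Mof+/-. On HFD it was at 21.0 and 23.6 CPM in Mof+/+ and at 17.2 and 14.1 CPM in Mof+/-. In each genotype the HFD libraries lay above the SD libraries without overlap. The log2 fold change for HFD was 1.05 ± 0.41 (SE, adjusted p = 0.144) in Mof+/+ and 0.99 ± 0.89 (adjusted p = 0.826) in Mof+/-, neither called by edgeR. The genotype difference was -0.20 ± 0.55 on SD and -0.17 ± 0.70 on HFD (adjusted p = 0.848 and 0.954), and the value of 17.2 CPM in the first HFD Mof+/- library rests on 18 counts.

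Tlr4 (chr4:66827584-66930284), the lipopolysaccharide receptor, was at 31.0, 23.6 and 33.3 CPM in SD Mof+/+ and at 26.2, 19.4 and 8.77 CPM in SD Mof+/-. On HFD it was at 17.2 and 21.3 CPM in Mof+/+, below all 3 SD Mof+/+ libraries, and at 0 and 12.3 CPM in Mof+/-. The log2 fold change for HFD in Mof+/+ was -0.48 ± 0.27 (edgeR, adjusted p = 0.303). In the first HFD Mof+/- library the count of 0 allows up to 2.87 CPM by the floor of 3 counts, and the macrophage marker Adgre1 was also at 0 there. The genotype values on HFD and SD were -1.33 ± 1.59 and -0.35 ± 0.40 (edgeR, adjusted p = 0.848 and 0.627). Without the first HFD Mof+/- library the HFD value was -0.48 (edgeR, adjusted p = 0.286). Without the second, which leaves that group at 0, it passed (edgeR, adjusted p = 0.000349), with a fitted size that depends on the prior count. When 1 library was left out, the SD value ranged from -0.68 to -0.038, the last without the third SD Mof+/- library.

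The inflammasome sensor was among the lowest members. Nlrp3 (chr11:59541568-59566956), which senses cell damage and assembles the inflammasome, had 0 to 40 counts per library and under 10 in 4 of 10. It was at 2.81, 1.23 and 1.55 CPM in SD Mof+/+, at 2.33, 0.863 and 0 CPM in SD Mof+/-, at 2.07 and 1.12 CPM in HFD Mof+/+, and at 0 and 2.89 CPM in HFD Mof+/-. Every pair of groups overlapped, and the HFD value in Mof+/+ was -0.10 ± 1.07 (edgeR, adjusted p = 0.964). No difference in Nlrp3 was called in any comparison.

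Il1b (chr2:129364570-129371139), the main secreted interleukin-1, was at 4.21, 0.959 and 4.13 CPM in SD Mof+/+ and at 1.28, 0.671 and 3.87 CPM in SD Mof+/-. On HFD it was at 2.20 and 1.25 CPM in Mof+/+, inside the SD Mof+/+ range, and had no count in either Mof+/- library. The HFD value in Mof+/+ was -0.71 ± 1.04 (edgeR, adjusted p = 0.700). In the HFD Mof+/- libraries 0 counts allow up to 2.87 and 0.542 CPM, of which the first is above both HFD Mof+/+ values, so the genotypes on HFD are not told apart by that library. An antisense gene, Il1bos, shares 25 exonic bases with Il1b and was at most at 0.116 CPM.

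Il18 (chr9:50554827-50581840), the other cytokine matured by caspase-1, showed opposite genotype directions on the diets. It was at 3.70, 2.19 and 8.00 CPM in SD Mof+/+ and at 8.91, 11.9 and 8.77 CPM in SD Mof+/-, where all 3 libraries were higher. On HFD it was at 5.36 and 8.87 CPM in Mof+/+ and at 0 and 1.63 CPM in Mof+/-, where both libraries were lower on 0 and 9 counts. The Mof+/- against Mof+/+ log2 fold change was 1.45 ± 0.63 on SD (edgeR, adjusted p = 0.190) and -2.54 ± 1.48 on HFD (adjusted p = 0.653). The test of that difference, the interaction, gave -4.02 ± 1.44 with an unadjusted p of 0.0171 from edgeR and an adjusted p of 0.310, which did not pass. The interaction passed without the second HFD Mof+/- library (edgeR, adjusted p = 0.0308), which leaves that group at 0, and was -3.42 without the first (edgeR, adjusted p = 0.307). The HFD value was -1.95 without the first HFD Mof+/- library (edgeR, adjusted p = 0.0432) and also passed without the second (adjusted p = 0.0131). The SD value ranged from 1.13 to 2.08 when 1 library was left out, and was 0.60 with the exon length offset.

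Tnf (chr17:35199381-35202007), the acute inflammatory cytokine, was at 0, 3.84 and 1.29 CPM in SD Mof+/+ and at 0.815, 0 and 0 CPM in SD Mof+/-. It was at 4.59 and 6.62 CPM in HFD Mof+/+ on 71 and 106 counts, above all SD libraries, and had no count in HFD Mof+/-. The HFD value in Mof+/+ was 1.82 ± 1.38 (edgeR, adjusted p = 0.436), with SD libraries that spread from 0 to 28 counts. It ranged from 1.24 without the first SD Mof+/+ library to 3.24 without the second, and passed in neither. Against the floor of 3 counts per library, mean Tnf was at least 3.28-fold lower in HFD Mof+/- than in HFD Mof+/+ (edgeR, adjusted p = 0.278). The bound was 10.3-fold without the first HFD Mof+/- library, which is the shallowest, and 1.95-fold without the second.

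The antagonist and the suppressive cytokine were each at or near 0 in 1 group. Il1rn (chr2:24336853-24351494) was at 3.58, 1.37 and 5.29 CPM in SD Mof+/+ and at 53.1 and 64.6 CPM in HFD Mof+/+, on 822 and 1034 counts. The log2 fold change was 4.23 ± 0.48 (edgeR, adjusted p = 0.00650), the largest of the 9 members tested in that comparison. In SD Mof+/- it was at 0.524, 0 and 0 CPM, below every SD Mof+/+ library, with a log2 fold change of -3.70 ± 1.60 (edgeR, adjusted p = 0.188). That value rests on 9 counts in the first SD Mof+/- library, without which the group is at 0 and the fitted value, -7.62, depends on the prior count. In HFD Mof+/- it was at 22.0 and 13.6 CPM, below both HFD Mof+/+ libraries (-1.39 ± 0.53, edgeR, adjusted p = 0.409) and above every SD library of either genotype. For HFD in Mof+/- the log2 fold change was 6.43 ± 1.75 with an adjusted p of 0.383 from edgeR and 0.00344 from DESeq2, and over all alternatives the adjusted p ranged up to 0.984. Without the first SD Mof+/- library, which leaves that group at 0, the fitted log2 fold change was 9.78. The difference also passed with no filter on low counts (adjusted p = 0.0129) and in the fit of all 10 libraries (adjusted p = 0.0241). The interaction was 2.03 ± 1.32 (edgeR, adjusted p = 0.565). In the first HFD Mof+/- library Il1rn had 23 counts, near the most frequent count of 15.

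Il10 (chr1:131019845-131024974), the cytokine that restrains macrophage activation, had no count in any SD Mof+/+ library and 13 to 31 counts in every SD Mof+/- library, at 1.40, 1.25 and 4.61 CPM. It was at 1.74 and 1.12 CPM in HFD Mof+/+ and at 0 and 2.17 CPM in HFD Mof+/-. Against the floor of 3 counts per library, mean Il10 was at least 6.14-fold higher in SD Mof+/- and at least 3.64-fold higher in HFD Mof+/+ than in SD Mof+/+. Without the third SD Mof+/- library the bound for SD Mof+/- was 3.36-fold. With the third SD libraries exchanged as their headings read, SD Mof+/+ would hold a library with Il10 counts, so that neither bound stands, and the fitted value for diet in Mof+/+ turned to -0.40. Il10 did not pass the filter on low counts in either of those comparisons and so had no test there. In the alternatives that tested it, among them no filter on low counts, it was called in neither (edgeR, adjusted p from 0.0701 to 0.191 for genotype on SD and from 0.0785 to 0.992 for diet in Mof+/+). The interaction was -7.79 ± 2.75 with an unadjusted p of 0.0187 and an adjusted p of 0.318 from edgeR, a fitted value that depends on the prior count because a group was at 0.

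The oxidase subunits had counts in every library. Cybb (chrX:9435252-9487771), the catalytic subunit, was at 57.3, 44.7 and 78.7 CPM in SD Mof+/+ and at 191 and 213 CPM in HFD Mof+/+, with a log2 fold change of 1.87 ± 0.24 (edgeR, adjusted p = 0.00920). In SD Mof+/- it was at 27.3, 26.3 and 24.2 CPM, a narrow range below all SD Mof+/+ libraries (-0.85 ± 0.28, edgeR, adjusted p = 0.100, and -0.55 with the exon length offset). In HFD Mof+/- it was at 33.5 and 81.0 CPM, below both HFD Mof+/+ libraries (-1.52 ± 0.43, edgeR, unadjusted p = 0.0180, adjusted p = 0.278). The HFD difference within Mof+/- was 1.12 ± 0.50 (edgeR, adjusted p = 0.586), and the interaction was -0.75 ± 0.51 (adjusted p = 0.585).

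Ncf1 (chr5:134220053-134229625), the cytosolic organizer, was at 27.7, 15.1 and 61.7 CPM in SD Mof+/+ and at 104 and 166 CPM in HFD Mof+/+. The log2 fold change was 2.09 ± 0.52, just past the threshold (edgeR, adjusted p = 0.0495), and an offset for exon length took it to the other side (adjusted p = 0.0579). Over all alternatives its adjusted p ranged from 0.00146 to 0.368, that of Cybb from 1.3e-09 to 0.117, and that of Il1rn from 2.16e-13 to 0.223. It was at 27.5, 20.8 and 8.92 CPM in SD Mof+/-, which overlapped SD Mof+/+, and at 19.2 and 46.3 CPM in HFD Mof+/-, below both HFD Mof+/+ libraries (-1.73 ± 0.50, edgeR, adjusted p = 0.278). The 61.7 CPM came from the third SD Mof+/+ library, in which the summed B cell markers were at 317 CPM and the T cell markers at 264 CPM, against at most 52.5 and 27.4 CPM in the other libraries. Without that library the HFD value of Ncf1 was 2.77 (edgeR, adjusted p = 0.0104). Gtf2ird2, on the other strand, shares 408 of the 3663 exonic bases of Ncf1, and since the library kit does not mark strand, reads there cannot be assigned. Gtf2ird2 was at 2.05 to 23.9 CPM, highest in the first HFD Mof+/- library, where it exceeded Ncf1.

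The wider pathway was read from 6 lists of other genes, of which 76 genes were tested for HFD in Mof+/+. Of these 11 were called, all higher, against 9.75% of all genes, and the median was 0.41. The calls were 4 of 13 inflammasome genes, 4 of 23 Toll receptors and adaptors, 1 of 6 NADPH oxidase genes, 1 of 9 interleukin-1 family genes and receptors, 1 of 12 other cytokines and receptors, and 0 of 13 NF-kB genes. The 11 calls became 0 without the second HFD Mof+/+ library, 1 without the first HFD Mof+/+ or the first SD Mof+/+ library, 22 without the third SD Mof+/+ library, 3 with all 10 libraries in one fit and 0 with the third SD libraries exchanged.

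**Figure D4:**
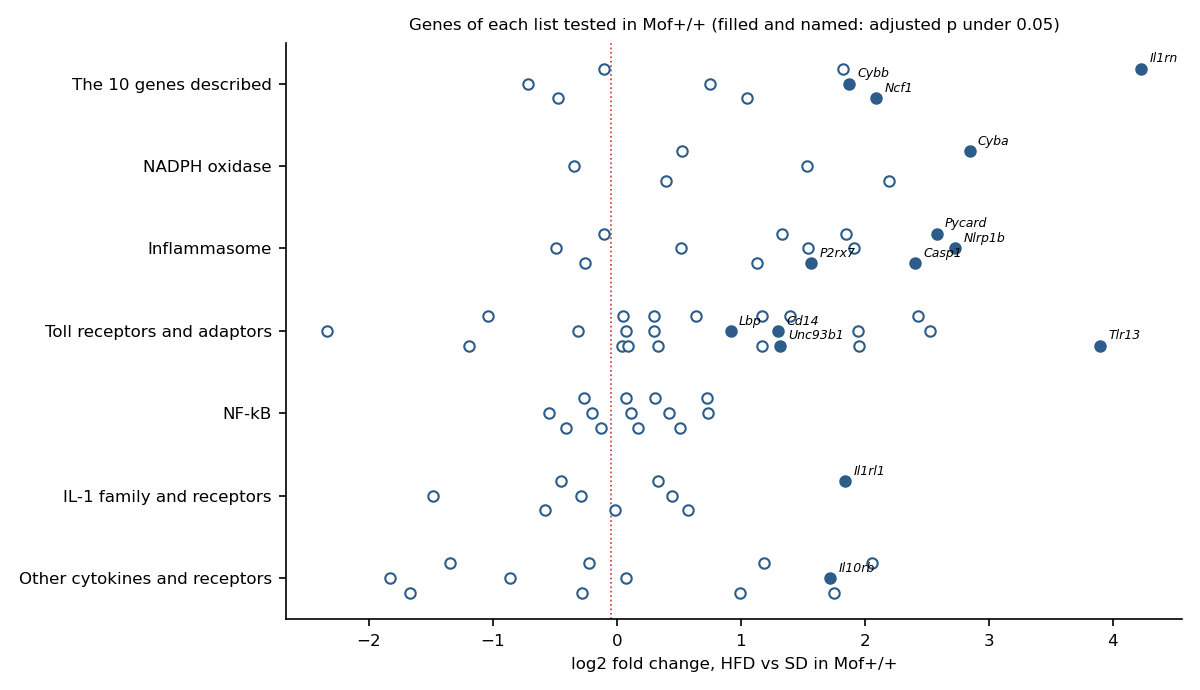
Log2 fold change for HFD against SD in Mof+/+ (x axis) of each tested gene of the 10 described and of the 6 pathway lists (y axis, spread only for legibility), with the median of all genes tested as a dotted line. Filled, named points passed an adjusted p of 0.05, and all 14 of them lie to the right, whereas the 13 NF-kB genes lie between -0.54 and 0.74.

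Cyba, the membrane partner of the Cybb protein, was at 29.3 to 106 CPM in SD Mof+/+ and at 361 and 573 CPM in HFD Mof+/+ (2.85 ± 0.48, edgeR, adjusted p = 0.0187). The inflammasome adaptor Pycard was at 5.89 to 19.0 CPM on SD and at 54.8 and 78.6 CPM on HFD in Mof+/+ (2.58 ± 0.44, edgeR, adjusted p = 0.0189). The protease Casp1 was at 8.08 to 18.5 CPM and at 58.3 and 84.9 CPM (2.40 ± 0.37, adjusted p = 0.0142). P2rx7, the ATP-gated channel that triggers the inflammasome, was at 16.0 to 19.7 CPM and at 43.8 and 50.5 CPM (1.57 ± 0.23, adjusted p = 0.0123). The adaptor and the protease were therefore called in a comparison in which the sensor Nlrp3 and the substrates Il1b and Il18 were not.

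Tlr13, an endosomal receptor for bacterial ribosomal RNA, was at 2.19 to 7.02 CPM in SD Mof+/+ and at 47.9 and 57.9 CPM in HFD Mof+/+ (3.90 ± 0.52, edgeR, adjusted p = 0.00976). Il1rl1, the interleukin-33 receptor, and Il10rb, a chain of the interleukin-10 receptor, were called with 1.84 ± 0.34 and 1.72 ± 0.33 (adjusted p = 0.0239 and 0.0266). Lbp, which carries lipopolysaccharide to its receptor complex, was at 177 to 217 CPM in SD Mof+/+ and at 374 and 289 CPM in HFD Mof+/+ (0.92 ± 0.20, edgeR, adjusted p = 0.0368). The remaining calls were Cd14, Unc93b1 and Nlrp1b. For genotype on SD, 2 of 67 pathway genes tested were called, both lower in Mof+/-, beside 5.24% of all genes called and 1.91% called lower: the NF-kB subunit gene Nfkb1 (-1.39 ± 0.33, edgeR, adjusted p = 0.0491) and the kinase gene Ikbkb (-1.08 ± 0.26, adjusted p = 0.0493). Nfkb1 was at 75.5 to 122 CPM in SD Mof+/+ and at 18.4 to 41.4 CPM in SD Mof+/-. Neither was called with the exon length offset, with the replicate block, with all 10 libraries in one fit, with the third SD libraries exchanged, or without any 1 library other than the first SD Mof+/-, without which Nfkb1 alone of the pair was called (edgeR, adjusted p = 0.0282). No pathway gene was called by edgeR for genotype on HFD (9 of 73 at an unadjusted p under 0.05, beside 12.3% of all genes), diet in Mof+/- (4 of 65, beside 8.57%) or the interaction (7 of 76, beside 12.4%). Leaving out an HFD Mof+/- library, which leaves 1 in that group, changed this. Pathway genes were then called for genotype on HFD without either library, and for diet in Mof+/- and the interaction without the second. Calls over all genes tested rose in the same fits, and such a fit assumes that the lone library varies like the other groups.

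Macrophage markers moved with several of these values. The sum of 11 macrophage markers, which include Adgre1 and Csf1r, was 1343 to 2210 CPM in SD Mof+/+, 2066 to 2391 CPM in SD Mof+/-, 5742 and 7958 CPM in HFD Mof+/+, and 1798 and 3814 CPM in HFD Mof+/-. All 11 had counts in 9 libraries, and 2 were at 0 in the first HFD Mof+/- library. The markers did not all follow the sum. Lyz2 made up the largest share of it, at 454 to 1000 CPM in SD Mof+/+ and 2680 and 3261 CPM in HFD Mof+/+, whereas Cd163 was at 49.0 to 73.4 CPM and at 9.82 and 11.2 CPM, and Mertk at 24.5 to 61.1 CPM and at 27.6 and 23.6 CPM. Across the 10 libraries the log2 level of the sum had a Pearson r of 0.90 with Ncf1, 0.88 with Cybb, 0.63 with Tlr2 and Il1rn, 0.20 with Tlr4 and -0.01 with Il1b, as a description of libraries that fall into 4 groups. The summed neutrophil markers were at 0 to 53.8 CPM, and their defining marker Ly6g was at 0 in every library.

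**Figure D5:**
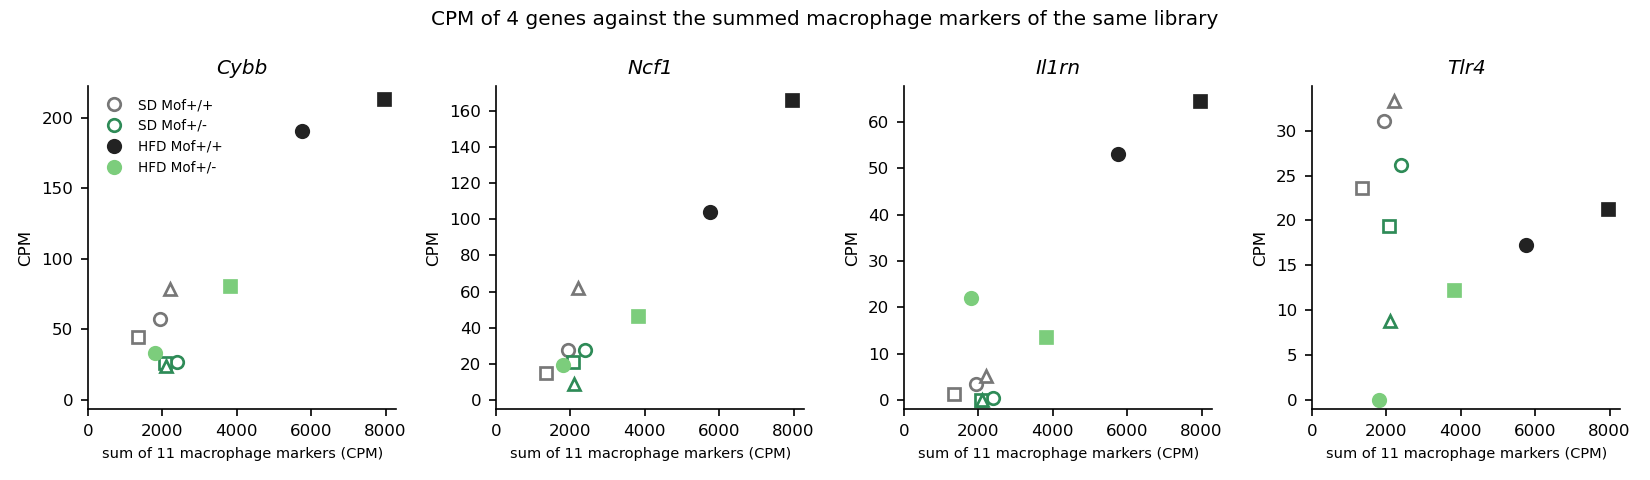
CPM of Cybb, Ncf1, Il1rn and Tlr4 (y axes, linear) against the sum of 11 macrophage markers in the same library (x axis, CPM). Circles, squares and triangles are replicates 1, 2 and 3. HFD Mof+/+ libraries are at the upper right for Cybb, Ncf1 and Il1rn, and for Tlr4 the first and the third SD Mof+/+ libraries are highest, with a sum of at most 2210 CPM.

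The level of each member per 1000 CPM of macrophage markers was set down after these values had been seen, and is given without a test. Cybb was at 29.7, 33.2 and 35.6 in SD Mof+/+ and at 33.2 and 26.8 in HFD Mof+/+, so the diet groups overlapped on this scale. It was at 11.4, 12.7 and 11.5 in SD Mof+/- and at 18.6 and 21.2 in HFD Mof+/-, below Mof+/+ on either diet. As a percentage of Csf1r alone, Cybb was at 19.5 to 33.2% in SD Mof+/+, 10.7 to 18.6% in SD Mof+/-, 60.8 and 47.4% in HFD Mof+/+, and 46.1 and 42.0% in HFD Mof+/-, so the HFD gap between genotypes was narrower and the diets were apart. Il1rn per 1000 CPM of markers was at 1.02 to 2.39 in SD Mof+/+ and at 9.25 and 8.11 in HFD Mof+/+, apart on this scale also. In HFD Mof+/- it was at 12.2 and 3.56, on either side of both HFD Mof+/+ values, so the genotypes on HFD overlapped on this scale. Tlr4 was at 15.1 to 17.5 in SD Mof+/+ and at 3.00 and 2.68 in HFD Mof+/+, beside 0 and 3.22 in HFD Mof+/-. The part of macrophage number in any member's difference was not tested.

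Other cell type markers also differed between groups. On SD, summed mesothelial markers were at 141 to 312 CPM in Mof+/- against 21.8 to 39.5 CPM in Mof+/+, and endothelial markers at 140 to 241 CPM against 868 to 2081 CPM. They go with the SD genotype values of Cybb, Il18 and Il1rn, and their part in these was not tested. On HFD, summed fibroblast and progenitor markers were at 657 and 961 CPM in Mof+/- against 1640 and 1623 CPM in Mof+/+. Endothelial markers were at 232 and 290 CPM in HFD Mof+/- against 426 and 337 CPM in HFD Mof+/+. The part of either in the HFD genotype values of the members was not tested. Summed adipocyte markers, present in every library, were at 29453 to 35517 CPM in SD Mof+/- and 18898 to 25665 CPM in SD Mof+/+, at 11484 and 15150 CPM in HFD Mof+/+, and at 4789 and 17369 CPM in HFD Mof+/-, lowest in the first library. Endothelial markers in HFD Mof+/+ were below SD Mof+/+, as was the adipocyte sum, whose members did not all follow it. In Mof+/+ Cfd, the largest part of that sum on SD, was at 9901 to 12413 CPM on SD and at 624 and 533 CPM on HFD. Plin1, Lipe and Retn were also lower on HFD. Lep, at 634 to 1812 CPM on SD and 6212 and 4599 CPM on HFD, and Cidec, at 1404 to 2303 CPM and 2891 and 2455 CPM, were higher, and Adipoq overlapped. The part of these markers in the diet values of Il1rn, Cybb and Ncf1 was not tested.

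The patterns of the members over the 10 libraries were compared by Pearson r of log2 TMM-normalized CPM. Cybb and Ncf1 had r = 0.91 with each other, and Il1rn had 0.83 with Cybb, 0.83 with Tlr2 and 0.76 with Ncf1. Il1b had r = -0.03 with Ncf1. The genes most like Cybb were Cd44, Nras and Rassf4 (r = 0.99, 0.98 and 0.97), those most like Ncf1 were Rab8b, Pirb and Syk (0.97, 0.96 and 0.96), and those most like Il1rn were Dcstamp, Adam8 and Tlr13 (0.97, 0.97 and 0.96). Clec4d and Naip2 were among those most like Tlr2 (each 0.95). For Tlr4 the closest were Man2a1, Fam129a and Eif2ak3 at r = 0.998, 0.998 and 0.997, which was 0.96, 0.94 and 0.92 without the first HFD Mof+/- library. For Il18 they were Sh2d4a, Cdc37 and Ifi211 (0.98, 0.98 and 0.97), and without that library these were 0.93, 0.89 and 0.89. The low members Nlrp3 (Kif7, Tbc1d9b and Vsig10l, 0.99 to 0.97), Il1b (Kcnq1ot1, Slc2a9 and Lrig3, 0.97 to 0.95), Tnf (Lclat1 and Bahd1, 0.92 and 0.88) and Il10 (Bad, C130026I21Rik and Yipf1, 0.98 to 0.97) rest on few counts, 125 to 229 over all libraries. Each r is among the highest of 11294 or 11295 candidate genes over 10 points that share libraries and depth, so it describes these libraries only.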

How the data were processed

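The deposited files hold raw counts of reads per gene, 1 file per library, with no normalization by the authors. Per the labels and the study's methods, RNA of visceral WAT was made into TruSeq RNA v2 libraries (no strand mark), read as 2 × 100 bases, aligned with STAR to GRCm38 (mm10) and counted with featureCounts of Subread 1.5.0-p1. The submitters' processing notes also list DESeq2 1.26, and the annotation release is not given in the sources used here.

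Here, counts were divided by each library's total for CPM, and by exon length from GENCODE M21 (GRCm38) for CPM per kilobase. That annotation also gave the coordinates, and a separate list of gene names gave the symbols of 47224 of 47937 genes. Genotype within each diet, diet within each genotype and their interaction (all 10 libraries) were tested with edgeR 4.0.16 (limma 3.58.1, R 4.3.3): TMM normalization, filterByExpr, the quasi-likelihood test and Benjamini-Hochberg adjustment over all genes tested at 0.05. Each pairwise fit held only the libraries compared, 4 to 6. DESeq2 1.42.0, other scalings and filters, all libraries in one fit, a replicate block, an exon length offset and leaving out each library were alternatives. Scripts were tested on simulated data. The labels call replicates biological without naming animals, so p-values measure the spread between these samples. Single-library intervals are exact Clopper-Pearson intervals at 95%, and total counts of 1044355 to 17171947 set the precision.

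The members and lists were chosen with earlier results of these data known. The genes named are the 10 members, up to 8 others per comparison from the 6 pathway lists with the smallest adjusted p under 0.05 (the remaining 3 for diet in Mof+/+, Cd14, Unc93b1 and Nlrp1b, were named after their values were seen), and the 3 genes of at least 50 mean counts with the highest Pearson r (log2 TMM-normalized CPM, prior count 1) with each member. A few genes that these rules would name are not reported here, and the pathway counts leave them out. Other marker lists were monocytes at 50.3 to 140 CPM, dendritic cells at 62.2 to 191 CPM, fibroblasts and progenitors at 657 to 4121 CPM, and myelin at 13.4 to 1002 CPM, highest in the second SD Mof+/+ library.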

Additional observations from a re-analysis of the deposited data

How the results depend on the processing

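The count of members called kept its value of 0 for genotype on SD under every alternative. For diet in Mof+/+ the 3 calls became 2 with the exon length offset (Ncf1 was lost), 1 with all 10 libraries in one fit, 0 with the third SD libraries exchanged, and 0 to 3 when a library was left out. For genotype on HFD the 0 calls became 0 to 6 when a library was left out. For diet in Mof+/- the 0 calls became 1 with DESeq2, 1 with no filter on low counts, 1 with all 10 libraries in one fit, and 0 to 3 when a library was left out. For the interaction the 0 calls became 0 to 2 when a library was left out (2, Tlr4 and Il18, without the second HFD Mof+/- library). A fit that leaves 1 library in a group assumes that it varies like the other groups. The replicate block changed no count of members called (0, 0, 3, 0 and 0), and the count of 11 pathway genes called for diet in Mof+/+ became 18 with it, 21 with DESeq2 and 18 with a minimum of 10 counts in every library. For genotype on SD the count of 2 pathway genes became 1 with the block (neither of the 2), 9 with DESeq2, 7 with no filter on low counts and 3 with that minimum. Where none was called by edgeR, DESeq2 called 2 for genotype on HFD, 1 for diet in Mof+/- and 2 for the interaction, the block 1 for genotype on HFD, and no filter 2 for diet in Mof+/- and 2 for the interaction. Deviations of same-numbered libraries from their group means correlated at -0.04 to 0.03. In groups of 2 or 3 libraries such deviations sum to 0, which ties these correlations to each other. They therefore cannot decide whether the numbers pair the samples. The block turned Nlrp3 to -0.19 and Il10 to -0.36 for genotype on HFD, and Nlrp3 to -0.34 for diet in Mof+/-, on the log2 scale.

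The other reversals were of log2 fold changes that passed no threshold. Exchanging the third SD libraries turned genotype on SD for Tlr2 (0.27), Tlr4 (0.40), Nlrp3 (0.40), Il1rn (0.20), Cybb (0.073) and Ncf1 (1.11), diet in Mof+/+ for Nlrp3 (0.34) and Il10 (-0.40, against 7.04 with no filter), diet in Mof+/- for Il10 (0.51), and the interaction for Nlrp3 (-0.25), Il1rn (-1.63) and Il10 (0.83). The exon length offset turned genotype on HFD for Tlr2 (1.23) and Il1rn (0.27) and the interaction for Tlr2 (1.32). All libraries in one fit turned Il10 for genotype on HFD (-0.036). The interaction for Tlr2, near 0, was 0.036 with DESeq2, 0.059 with its size factors and 0.0098 with TMM factors without muscle and mitochondrial genes. When a library was left out, genotype on SD ranged from -0.46 to 0.16 for Tlr2, -1.71 to 0.11 for Nlrp3, -1.32 to 0.16 for Il1b and -0.86 to 0.17 for Ncf1. Genotype on HFD ranged from -0.49 to 0.022 for Tlr2, -7.11 to 1.02 for Nlrp3 and -6.96 to 0.76 for Il10. Diet ranged from -0.57 to 0.32 for Nlrp3 in Mof+/+, and in Mof+/- from -6.25 to 1.33 for Nlrp3 and from -7.47 to 0.0042 for Il10. The interaction ranged from -0.39 to 0.24 for Tlr2 and from -6.51 to 1.92 for Nlrp3. The causes were not tested.

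Counts of all genes called differed by over 1.5 times from edgeR's with DESeq2 (2211 against 727 for genotype on SD, 209 against 0 for genotype on HFD, 2990 against 1457 for diet in Mof+/+, 402 against 0 for diet in Mof+/-, 490 against 14 for the interaction). For genotype on SD the 727 became 1840 with no filter, 1235 with a minimum of 10 counts, 428 with the block, 380 with the length offset, 194 in one fit of all libraries, and 17 to 1026 when a library was left out, with 19, 35, 74 and 17 without SD Mof+/+ 1, 2 and 3 and SD Mof+/- 2. For diet in Mof+/+ the 1457 became 142 in one fit and 64 to 2230 when a library was left out. With no filter 429 were called for diet in Mof+/- and 380 for the interaction, and with the block 200 for genotype on HFD and 245 for diet in Mof+/-. With the length offset 97 were called for genotype on HFD and 91 for diet in Mof+/-, in one fit 1 and 189, and with a minimum of 10 counts 26 for diet in Mof+/- and 38 for the interaction. Without the second HFD Mof+/- library 2122 were called for diet in Mof+/- and 3163 for the interaction. With the third SD libraries exchanged 0 genes were called for genotype on SD and for diet in Mof+/+. TMM moved the median log2 fold change of all genes against total-count CPM by 0.36 for genotype on SD, 0.33 for genotype on HFD and 0.12 for diet in Mof+/+. The summed CPM of the members moved within its spread under both other scalings.

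Depth limits the low members: Nlrp3, Il1b, Tnf and Il10 had 125 to 229 counts over all libraries, and in the first HFD Mof+/- library 6 of 10 members had no count, where 3 counts are 2.87 CPM.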
